A study of Mus musculus with 6 samples.

Results

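Dppa2 peaks that sat on the upstream side of a protein-coding transcription start site (TSS) are described here. They were selected on their position, on the CpG content of the DNA under them and on the type of the nearest gene, so these 3 properties are descriptions and not results. A peak was taken when the TSS nearest to its midpoint belonged to a protein-coding gene, when no other protein-coding gene had a TSS within 1000 bp, when the CpG ratio of the 1000 bp around the midpoint was from 0.4 to below 0.9, and when the midpoint lay at least 100 bp upstream of the TSS. The CpG ratio is the number of CpG dinucleotides divided by the number that the C and G content would give. Of the 3336 Dppa2 peaks in the list, which holds peaks at TSSs and not all peaks of the experiment, 231 met this rule, each at a different gene. They are set beside 1012 peaks that met the same rule with the midpoint at least 100 bp downstream of the TSS and 523 with the midpoint closer than that.

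The peaks come from CGR8 cells, a mouse embryonic stem cell (ESC) line that was cultured with leukemia inhibitory factor and serum on gelatin, with no feeder cells. The cells carried the Dppa2 coding sequence with a V5 epitope tag at its N terminus in a pPyCAG vector and had been selected as stable puromycin-resistant clones, so the tagged protein was present in addition to whatever the cells' own gene makes. V5 chromatin immunoprecipitation (ChIP) from the parental CGR8 line, which carries no V5 tag, was the control, and both conditions had 1 library, so there is no replicate error and no test between conditions. The other 4 of the 6 samples of the series, and the control as a separate data set, were not analysed here. Beyond the tagged vector and the puromycin selection, no difference in genotype or culture between the lines is stated, and none was checked here. The labels do not say how many clones went into the ChIP.

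Dppa2 is a SAP domain protein found in ESCs, in the early embryo and in the germ line, and is used as a marker of pluripotent cells. Mammalian promoters often lie in CpG islands, stretches of DNA that kept their CpG dinucleotides, which usually extend to both sides of the TSS. The upstream side of the TSS holds the promoter elements to which sequence-specific factors such as Sp1 and NF-Y bind, whereas the downstream side becomes the first exon and intron.

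The DNA at the centre of 10 upstream peaks is shown to let the CpG content and the sequence classes be seen. Each line gives 160 bp of the mm9 reference around the midpoint, read 5′ to 3′ on the strand of the gene, with each CpG dinucleotide in capitals. The first 3 are the highest-scoring peaks in which under 10% of the 36-base words recur in the genome. They lie 271 bp upstream of Gm10775 (chr13:65360496-65360655, plus strand), 203 bp upstream of Prkcz (chr4:154735593-154735752, minus strand) and 540 bp upstream of the nearest TSS of Taf7l (chrX:131009992-131010151, minus strand).
Gm10775: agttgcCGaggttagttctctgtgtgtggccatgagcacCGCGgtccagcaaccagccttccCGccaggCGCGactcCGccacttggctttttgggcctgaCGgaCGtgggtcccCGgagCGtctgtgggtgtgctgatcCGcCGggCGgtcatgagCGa
Prkcz: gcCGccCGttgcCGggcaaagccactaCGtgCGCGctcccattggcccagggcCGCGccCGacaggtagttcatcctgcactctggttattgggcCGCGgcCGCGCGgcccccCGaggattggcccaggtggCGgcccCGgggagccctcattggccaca
Taf7l: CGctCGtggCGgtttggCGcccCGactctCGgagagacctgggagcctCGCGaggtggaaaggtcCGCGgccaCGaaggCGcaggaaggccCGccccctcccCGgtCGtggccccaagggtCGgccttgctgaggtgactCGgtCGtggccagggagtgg
These 3 windows hold 15, 17 and 18 CpG dinucleotides. The Prkcz window also holds 4 matches to the CCAAT box, all read as ATTGG on this strand.

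The next pair of sequences is from the peaks centred farthest from the TSS, 985 bp upstream of Kif26b (chr1:180458191-180458350, plus strand) and 923 bp upstream of Plxdc1 (chr11:97848601-97848760, minus strand).
Kif26b: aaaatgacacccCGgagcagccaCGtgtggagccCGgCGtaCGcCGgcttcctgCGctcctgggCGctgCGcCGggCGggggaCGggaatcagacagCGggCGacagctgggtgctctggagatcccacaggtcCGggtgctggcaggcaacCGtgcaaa
Plxdc1: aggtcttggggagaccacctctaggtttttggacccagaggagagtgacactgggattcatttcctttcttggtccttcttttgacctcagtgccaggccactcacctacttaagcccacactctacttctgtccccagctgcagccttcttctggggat
At a nearly equal distance the Kif26b centre had 16 CpG dinucleotides and the Plxdc1 centre had 0. The Plxdc1 peak was 3462 bp wide and reached over the TSS, so its midpoint need not be where the protein was bound.

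The range of the CpG ratio is shown by Fcgr3 (chr1:172995580-172995739, minus strand), which had the highest ratio, 0.8996, among the peaks whose centre lay in no annotated exon, and Tbx4 (chr11:85699559-85699718, plus strand), which had the lowest, 0.402.
Fcgr3: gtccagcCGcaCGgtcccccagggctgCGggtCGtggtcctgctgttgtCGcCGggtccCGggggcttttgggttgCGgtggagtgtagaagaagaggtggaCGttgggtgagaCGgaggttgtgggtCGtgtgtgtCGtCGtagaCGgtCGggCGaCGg
Tbx4: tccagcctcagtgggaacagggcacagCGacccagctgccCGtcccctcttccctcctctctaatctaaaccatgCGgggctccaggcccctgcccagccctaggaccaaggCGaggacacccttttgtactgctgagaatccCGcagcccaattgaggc
The Fcgr3 centre held 17 CpG dinucleotides and the Tbx4 centre 5. Of the Fcgr3 peak, 86.2% consisted of 36-base words that occur more than once in the genome.

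The last 3 sequences are from the genes of the plasma membrane transporters for dopamine (Slc6a3, chr13:73673976-73674135), noradrenaline (Slc6a2, chr8:95484713-95484872) and serotonin (Slc6a4, chr11:76811164-76811323), all on the plus strand. This group was chosen after its values had been seen.
Slc6a3: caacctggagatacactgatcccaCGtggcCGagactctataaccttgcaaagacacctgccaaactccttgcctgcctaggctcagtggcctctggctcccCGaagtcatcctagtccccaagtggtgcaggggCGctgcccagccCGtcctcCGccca
Slc6a2: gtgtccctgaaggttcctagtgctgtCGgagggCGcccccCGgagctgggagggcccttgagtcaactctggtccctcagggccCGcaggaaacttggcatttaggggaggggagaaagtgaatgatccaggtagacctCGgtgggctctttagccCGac
Slc6a4: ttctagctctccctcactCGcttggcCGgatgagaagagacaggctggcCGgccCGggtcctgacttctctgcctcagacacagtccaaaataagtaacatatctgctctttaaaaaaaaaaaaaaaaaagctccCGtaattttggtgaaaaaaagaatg
Their centres held 6, 6 and 5 CpG dinucleotides, fewer than in the 3 highest-scoring sequences above.

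The 231 midpoints lay 101 to 985 bp upstream of the nearest TSS, with a median of 202 bp and quartiles of 138 and 297 bp. Near the TSS they were the most frequent: 68 lay from 100 to below 150 bp, 46 from 150 to below 200 bp, 60 from 200 to below 300 bp, 34 from 300 to below 500 bp and 23 farther out. The downstream peaks had a median of 274 bp and were more numerous at each comparable distance. The 231 genes are 1.03% of the 22367 protein-coding genes, and the downstream peaks reached 1011 genes, 4.52%. Another 29 peaks met the rule for position but had a CpG ratio below the range, and 71 had one at or above it.

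**Figure D1:**
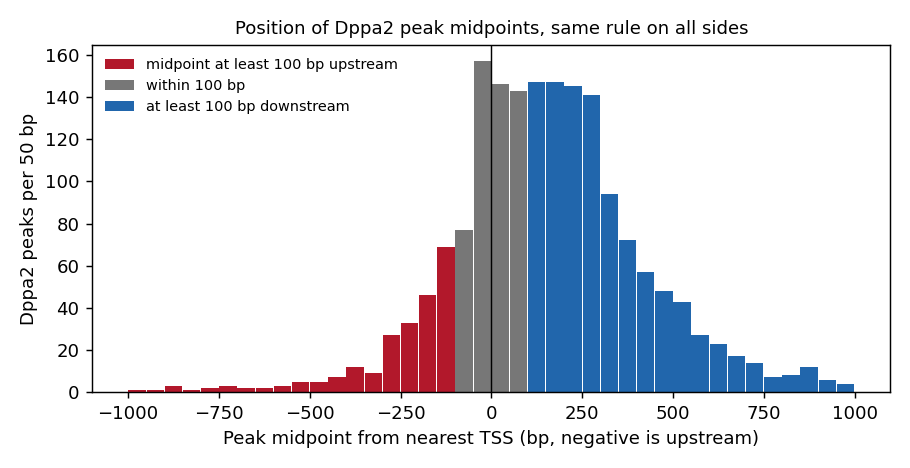
Number of Dppa2 peaks per 50 bp (y axis) by the position of the peak midpoint from the nearest TSS (x axis, bp, negative is upstream), for peaks that met the same rule; red, 231 upstream peaks; grey, 523 within 100 bp; blue, 1012 downstream peaks. From 100 bp outward the counts are higher on the downstream side, and on the upstream side they thin out beyond 300 bp.

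Values on both sides of the limits of the rule were as follows. Just inside the limit of 100 bp were the peaks at Mosc2 (101 bp upstream, score 522), Crtac1 (103 bp, 172) and Ogdh (103 bp, 114), and just outside it those at Kif26a (99 bp, 215), Ei24 (99 bp, 260.1) and Aatf (98 bp, 228). By CpG ratio, Tbx4 (0.402) was just inside the lower limit and Phkg1 (0.39968) just outside it. At the upper limit Sipa1l1 (0.8998) was inside and Cdc14b (0.901) outside.

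Although all 231 midpoints lay upstream of the nearest TSS, 60 (26.0%, exact 95% interval 20.4 to 32.1) lay downstream of another TSS of the same gene and so within the gene. The other 171 (74.0%) were upstream of every annotated TSS. Intervals of shares here and below are exact Clopper-Pearson intervals, those of differences are Newcombe intervals, and they cover counting error among the peaks of 1 library only. Taf7l is an example of the first kind: its peak was centred 540 bp before the nearest TSS but 957 bp after the first TSS of the gene, in an intron. The peaks at Slc6a2, Slc6a17, Cdh1 and Dmrtb1 were of this kind too. Peaks with an earlier TSS had a median score of 187 and a median width of 1681 bp, against 202 and 1617 bp for the others. Their DNA had a median GC content of 66.3%, against 63.7%.

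Most midpoints, 153 of 231 (66.2%), were between genes, 38 were in an intron, 12 in a coding exon, 25 in an exon of a coding gene outside its coding sequence and 3 in an exon of a gene of another type. The midpoint fell in another gene in 24 cases (10.4%, 6.77 to 15.1), compared with 69 of the downstream peaks (6.82%), a difference of 3.57 percentage points (95% interval -0.158 to 8.38). In 10 of the 24 the other gene was protein-coding and on the same strand. So the peak at Rsph6a, a radial spoke protein of motile cilia, was centred in an exon of Sympk outside its coding sequence, 809 bp before the Rsph6a TSS, and had a score of 439. The peak at Tymp, thymidine phosphorylase, was centred in Odf3b 772 bp before the TSS and had a score of 504. The peak at Tgfb1, the growth factor TGF-β1, was centred in B9d2 572 bp before the TSS and had a score of 196. The other 14 were 4 coding genes on the opposite strand and 10 genes of other types.

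A TSS of a gene that is not protein-coding lay within 1000 bp of 12 upstream midpoints (5.19%, 2.71 to 8.90) and of 35 downstream ones (3.46%), a difference of 1.74 points (-0.825 to 5.52). All 12 of these genes were on the strand opposite to the coding gene, and 10 were annotated as long intergenic non-coding RNAs. They neighboured Nrg1, a ligand of ErbB receptors (score 672), Tdrkh, a piRNA pathway protein of the germ line, and Zfp651, among others. Hes5, an effector of Notch signalling, had a processed transcript on the opposite strand there.

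The peaks reached well beyond their midpoints. Of the upstream peaks, 227 (98.3%, 95.6 to 99.5) covered the nearest TSS itself, and of the downstream peaks 984 (97.2%), a difference of 1.04 points (-1.73 to 2.64). The median upstream peak had 1049 bp before the TSS and 579 bp after it, whereas the median downstream peak had 375.5 and 972.5 bp. At 1075 bp before the TSS 48.9% of the upstream peaks were still present, compared with 1.98% of the downstream ones. At 575 bp after the TSS the shares were 51.9% and 99.3%. These positions follow from the rule and are given as a description. The 4 peaks that ended before the TSS were at Gm9931 (score 865), Zdhhc23, a palmitoyltransferase (312), Zfp423, a zinc finger factor (154), and Kif26b, a kinesin family protein (135).

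**Figure D2:**
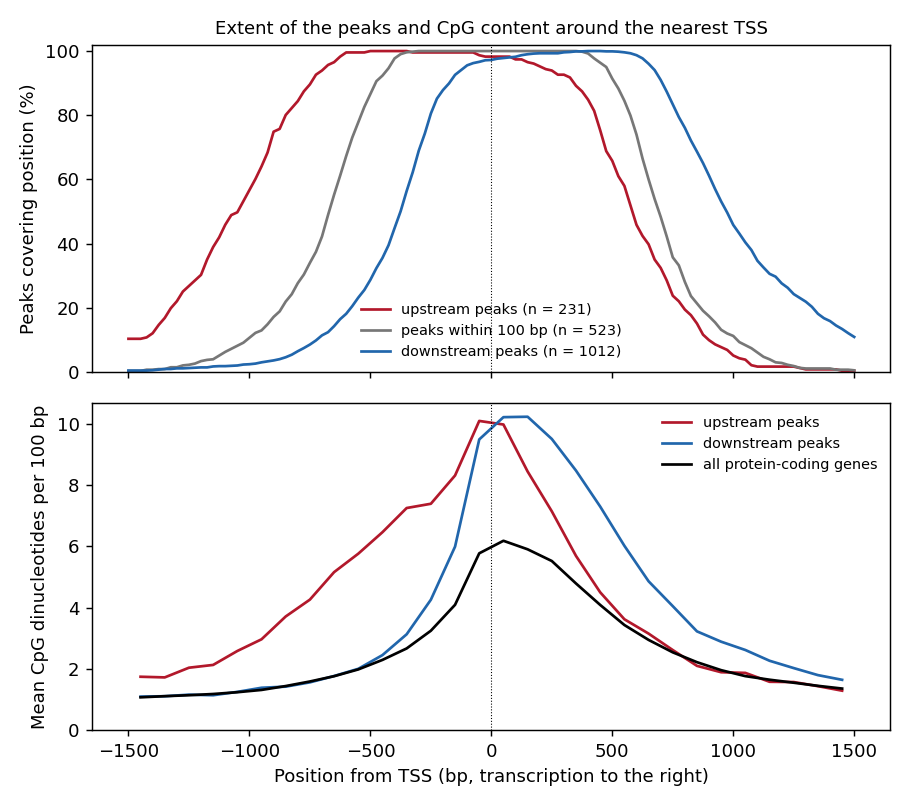
Top, percentage of peaks that cover each position (y axis) around the nearest TSS (x axis, bp, transcription to the right) for upstream (red), central (grey) and downstream (blue) peaks; bottom, mean number of CpG dinucleotides per 100 bp at the same positions for upstream peaks, downstream peaks and all protein-coding genes (black). The red curves lie to the left of the blue ones in both panels, and at 450 bp before the TSS the CpG density is 6.46, 2.45 and 2.29 in the 3 sets.

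CpG dinucleotides were shifted in the same direction as the peaks. In the 100 bp centred 450 bp before the TSS there were on average 6.46 CpG dinucleotides at the upstream peaks, 2.45 at the downstream peaks and 2.29 at all protein-coding genes. In the 100 bp centred 450 bp after the TSS the order was turned, with 4.50 at the upstream peaks and 7.29 at the downstream peaks, and 4.09 at all genes. Close to the TSS, at 50 bp before it, both sets were alike, with 10.1 and 9.48. The 500 bp with the most CpG dinucleotides had its centre upstream of the TSS at 123 of the 231 genes (53.2%) and at 126 of the 1012 (12.5%). The median of that centre was 23 bp before the TSS in the first set (-23 bp) and 167 bp after it in the second. Since the rule set a floor on the CpG ratio at the midpoint, part of this shift was built in, and no test was made. Among the upstream peaks, the centre of the CpG-rich stretch and the midpoint of the peak had a Spearman correlation of 0.272 over 231 peaks, which share 1 library.

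Upstream peaks were wider than peaks on the other side of the TSS. The median width was 1641 bp (quartiles 1409 and 1962 bp, range 730 to 4826), compared with 1369 bp for the downstream and 1351 bp for the central peaks. The Hodges-Lehmann shift, the median of all differences between a peak of one set and a peak of the other, was 249 bp against the downstream peaks (95% interval from the inverted Mann-Whitney test, 188 to 308) and 259 bp against the central peaks (198 to 321). Width was not used by the rule. A width of at least 2200 bp was found in 33 upstream peaks (14.3%) and in 82 downstream peaks (8.10%), a difference of 6.18 points (1.84 to 11.5). The widest were at Gm10807 (4826 bp), Tymp (4095 bp), Fcgr3 (4056 bp) and Plxdc1, a plexin domain protein (3462 bp). Width increased with distance, from a median of 1532 bp in the peaks from 100 to below 150 bp upstream to 2083 bp in those from 500 bp on. The Spearman correlation was 0.304 over 231 peaks of 1 library. The list holds peaks at TSSs, and 227 of the 231 covered the nearest TSS, for which a peak centred farther away must be wider. This trend and the shift against the central peaks were thus built in at least in part and are descriptions. With midpoints 100 to 300 bp from the TSS in both sets, the width shift against the downstream peaks was 289 bp (225 to 352).

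The score of a peak comes from MACS, as the p-value for more reads in the V5-Dppa2 ChIP than in the control on a negative log10 scale, multiplied by 10. It measures how sure the enrichment is, not how large. The upstream scores ran from 101 to 2241 with a median of 199 and quartiles of 148 and 310. The median was 220 for the central and 228 for the downstream peaks. The shift was -17.74 against the downstream peaks (95% interval -33.19 to -3.19) and -10.91 against the central peaks (-26.74 to 3.79). A score of at least 200 was reached by 115 upstream peaks (49.8%) and 613 downstream peaks (60.6%), a difference of -10.8 points (-17.8 to -3.70). Within midpoints 100 to 300 bp from the TSS in both sets, the shift of the score was -14.47 and its interval included 0 (-31.68 to 1.85). Over these 231 peaks the Spearman correlation of the score was 0.00836 with width and -0.00143 with distance.

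**Figure D3:**
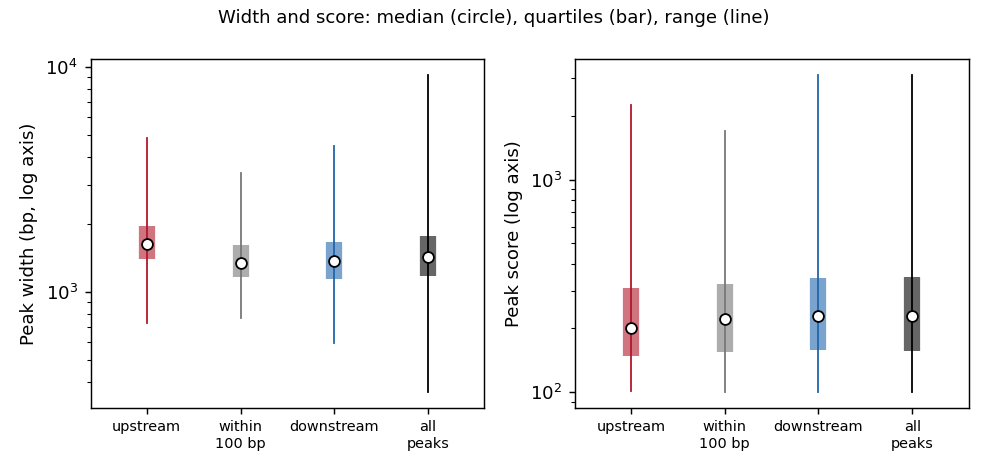
Peak width (left, bp, log axis) and peak score (right, log axis) of the upstream, central (within 100 bp) and downstream peaks and of all 3336 peaks; circles are medians, bars span the quartiles and lines the range. The upstream peaks have the highest median width, 1641 bp, and the lowest median score, 199.

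The 12 highest-scoring upstream peaks fell into those in unique DNA and those in repeated DNA. The first was at Fcgr3, which encodes a low-affinity receptor for IgG, at chr1:172993633-172997688, with a score of 2241, and 86.2% of its 36-base words were repeated elsewhere in the genome. Gm17492 (score 1253, 86.3% repeated), Gm9931 (865, 93.6%) and Sult2a4, of the sulfotransferase family (845, 58.8%), were mostly repeated too, and Gm6190 (1041, 22.2%) in part. Reads with several alignments were kept at the best one, so the scores at these 5 can include reads from other copies. How much they contribute was not tested.

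The other 7 had under 10% of repeated words. They were Gm10775 (chr13:65359305-65361848, score 1225), Prkcz (chr4:154734896-154736450, 968), Taf7l (chrX:131009038-131011107, 911), CT009512.1 (826), Dmrtb1 (chr4:107355476-107357134, 738), Ubtd2 (717) and Hs6st3 (707). Prkcz encodes the atypical protein kinase C ζ of cell polarity, and Hs6st3 a heparan sulfate 6-O-sulfotransferase. Taf7l, a paralogue of a TFIID subunit, and Dmrtb1, a DM-domain transcription factor, are known from male germ cells. The CT009512.1 peak was centred in a coding exon of Cdh24, which runs on the opposite strand, so the gene it belongs to is uncertain.

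**Figure D4:**
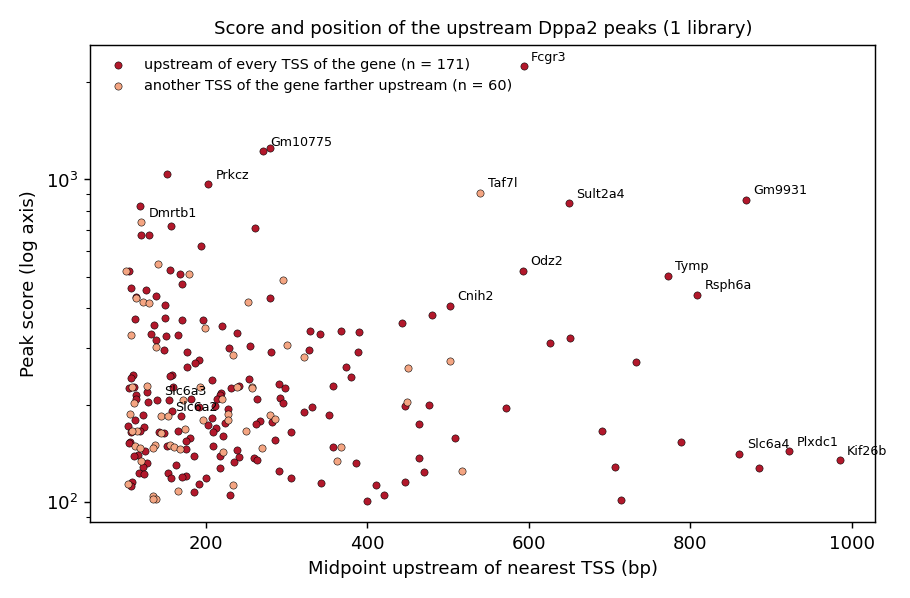
Score (y axis, log axis) of each of the 231 upstream peaks by the distance of its midpoint upstream of the nearest TSS (x axis, bp); red points, 171 peaks upstream of every TSS of the gene; light points, 60 with another TSS of the gene farther upstream. Scores above 700 occur from 118 bp (CT009512.1) to 869 bp (Gm9931, in repeated DNA), and the peaks at Slc6a4, Plxdc1 and Kif26b lie far upstream with scores from 135 to 144.

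Repeated DNA was about as frequent as on the downstream side. At least 10% of repeated 36-base words were found in 23 upstream peaks (9.96%, 6.42 to 14.6) and in 108 downstream peaks (10.7%), a difference of -0.715 points (-4.54 to 4.15). Besides those named, the 23 included the zinc finger genes Zfp959 and Zfp119a and Rnaset2a and Rnaset2b, a pair of related genes on chromosome 17. The Rnaset2a and Rnaset2b peaks both had 73.4% of repeated words and scores of 215 and 139. Reads from the repeated words could have been placed at another copy, and the share of such reads was not tested.

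The 5 peaks farthest upstream had low scores with 1 exception. Kif26b lay 985 bp from its peak midpoint (score 135), Plxdc1 923 bp (144), Xkr8, a phospholipid scramblase of dying cells, 885 bp (128) and Slc6a4 861 bp (141), whereas Gm9931 at 869 bp had a score of 865. The Xkr8 midpoint was in a coding exon of Smpdl3b on the same strand. Across distances the median score was 204, 202, 197 and 198 in the 4 classes up to 500 bp and 272 in the 23 peaks beyond. Of these 23, Fcgr3, Gm9931 and Sult2a4 lay in repeated DNA, and without them the median was 181, below those of the nearer classes, which were 194 to 205 without their repeated peaks. The higher median beyond 500 bp thus rested on these 3 peaks.

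Gene families were taken by symbol, and the share of each family with an upstream peak is to be read against 1.03% of all protein-coding genes, in each case with an exact interval. Solute carriers had 9 of 401 genes (2.24%, 1.03 to 4.22), the largest count beside zinc finger genes, with the lower end of the interval at the background. On the downstream side the family had 25 genes (6.23%) with a peak, against 4.52% of all protein-coding genes. Solute carriers are membrane transporters, and the highest score of the 9 was at Slc41a2, a magnesium transporter (348). The others were Slc1a1, Slc25a28, Slc27a2, Slc29a3 and 4 of the 19 genes of the Slc6 family of sodium-dependent transporters. Of those 4, Slc6a3 was centred 139 bp upstream with a score of 208, Slc6a2 153 bp upstream with 184, Slc6a4 861 bp upstream with 141 and Slc6a17, a transporter of neutral amino acids, 135 bp upstream with 105. For Slc6a2 and Slc6a17 an earlier TSS of the gene lay 815 and 546 bp before the midpoint. Slc6a11 and Slc6a6 had 1 peak each that was in neither the upstream nor the downstream set, and no peak was listed at the other 13.

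Zinc finger genes had 9 of 493 members with an upstream peak (1.83%, 0.838 to 3.44), led by Zbtb46 (score 295), a factor of dendritic cells. Homeobox genes had 0 of 217 (0%, 0 to 1.69), an interval that included the background. A downstream peak was found at 7 of them (3.23%), against 4.52% of all protein-coding genes. Of 62 forkhead and Sox genes there was 1 (1.61%, 0.0408 to 8.66), Sox7 (128), a factor of endoderm and endothelium. Among 213 chromatin genes 3 were found (1.41%, 0.291 to 4.06), Sirt5 (204.5), Arid4a (203) and Smarcd3 (145). Sirt5 is in this list by its symbol, while the protein is known as a mitochondrial deacylase. Smarcd3 is a subunit of the BAF chromatin remodelling complexes.

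Ion channel genes had 4 of 188 (2.13%, 0.583 to 5.36), an interval that included the background. They were Kcnc4 (score 340.4, 367 bp upstream), Kcnq1 (219), Kcnd2 (165) and Kcna6 (151). All are voltage-gated potassium channels, but the number of such channels in the list was not counted. The same family had 18 genes (9.57%) with a downstream peak, against 4.52% of all. Axon guidance genes had 1 of 78 (1.28%, 0.0325 to 6.94), the Eph receptor Ephb6 (209), and 8 (10.3%) on the downstream side. For axon guidance genes the upstream share was near the background.

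Signalling ligands and receptors had 4 of 157 (2.55%, 0.698 to 6.39). They were Bmp8a (304) and Tgfb1 (196), of the TGF-β superfamily, the growth factor gene Pdgfc (148) and Sfrp2, a secreted Wnt antagonist (138). Hey1 (chr3:8666586-8668074, score 233, 291 bp upstream) and Hes5 (chr4:154333759-154336086, 248, 110 bp upstream), both transcriptional repressors induced by Notch, had upstream peaks too. They were picked after the values had been seen.

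The remaining lists had 1 to 3 genes each. As in the lists above apart from the solute carriers, where it was at the lower end, their intervals included the background. Cell adhesion and matrix genes had 3 of 288 (1.04%, 0.215 to 3.01): Adam32 (455), Col11a2 (304) and Cdh1 (181), which encodes E-cadherin. Cytoskeleton and motor genes had 3 of 205 (1.46%, 0.303 to 4.22): Myo6, an unconventional myosin (335), the muscle intermediate filament gene Des (293) and Kif26b. Meiosis and germline genes had 2 of 100 (2.00%, 0.243 to 7.04), Taf7l and Tex15 (226), which acts in male meiosis. Mitochondrial and ribosomal genes had 1 of 278 (0.360%, 0.00911 to 1.99), the complex I subunit gene Ndufa6 (133). Kinases of the MAP and cyclin pathways had 1 of 104 (0.962%, 0.0243 to 5.24), Mapk12, p38γ (164.5).

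Promoter motifs were searched by exact letters on both strands in the 300 bp around each midpoint. A match is a description of the sequence and not a binding site. The CCAAT box (CCAAT), which NF-Y binds, was in 73 upstream centres (31.6%, 25.7 to 38.0) and 138 downstream centres (13.6%), a difference of 18.0 points (11.9 to 24.5). Of coding genes with a CpG ratio in the same range, taken over the whole genome, 37.7% had a match in a window centred 202 bp upstream of the TSS and 19.7% in one centred 274 bp downstream. These windows had a fixed distance from the TSS with the most annotated transcripts, while the distances of the peak centres vary. The genes of the peaks were not left out of them, and the windows were not matched on GC content. The share at the upstream peaks was not above that of the upstream windows, and the windows differed between the sides in the same direction as the peaks.

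The GC box (GGGCGG), which Sp1 binds, was in 152 upstream centres (65.8%, 59.3 to 71.9) and 565 downstream centres (55.8%), a difference of 9.97 points (2.95 to 16.5). Coding genes with a CpG ratio in range had it in 50.2% and 48.2% of the windows at these positions. The share of all 22367 promoter windows, from 250 bp before to 50 bp after the TSS, was 43.7%. With a distance of at least 200 bp in both sets the difference was 3.64 points and its interval included 0 (-6.11 to 13.0).

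The E-box (CACGTG) was in 23 upstream centres (9.96%, 6.42 to 14.6) and 42 downstream centres (4.15%), a difference of 5.81 points (2.28 to 10.5), beside 7.91% and 5.26% of coding genes with a CpG ratio in range and 7.75% of all promoters. Examples were Slc6a3, Tgfb1, Kcnq1 and Bambi, a pseudoreceptor of the TGF-β family. The TATA box letters (TATAAA) were in 8 upstream centres (3.46%, 1.51 to 6.71), among them Slc6a2, Cdh1 and Crtac1, and in 7 downstream centres (0.692%), a difference of 2.77 points (0.923 to 6.01). Coding genes with a CpG ratio in range had them in 8.41% and 3.46% of windows, and all promoters in 13.4%.

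The E2F letters (TCCCGC), which can share bases with a GC box beside them, were in 84 upstream centres (36.4%, 30.2 to 42.9) and 426 downstream centres (42.1%), a difference of -5.73 points (-12.4 to 1.32), with 28.0% and 34.8% in coding genes in the CpG range and 24.5% of all promoters. The ETS letters (CCGGAAG) were in 13 (5.63%) and 45 centres (4.45%), a difference of 1.18 points (-1.55 to 5.10), with 8.75% and 7.20% of coding genes in the CpG range and 10.8% of all promoters. The NRF1 letters (CGCATGCG) were in 3 (1.30%) and 9 (0.889%), a difference of 0.409 points (-0.757 to 2.89), with 1.97% and 0.747% of coding genes in the CpG range and 2.21% of all promoters. The cyclic AMP response element (TGACGTCA) was in 3 upstream centres (1.30%), at Tmem151a, Dusp1 and Plk2, and in 2 downstream centres (0.198%), a difference of 1.10 points (0.0994 to 3.55). Of coding genes in the CpG range 1.45% and 0.547% had it at these positions, and of all promoters 2.33%.

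**Figure D5:**
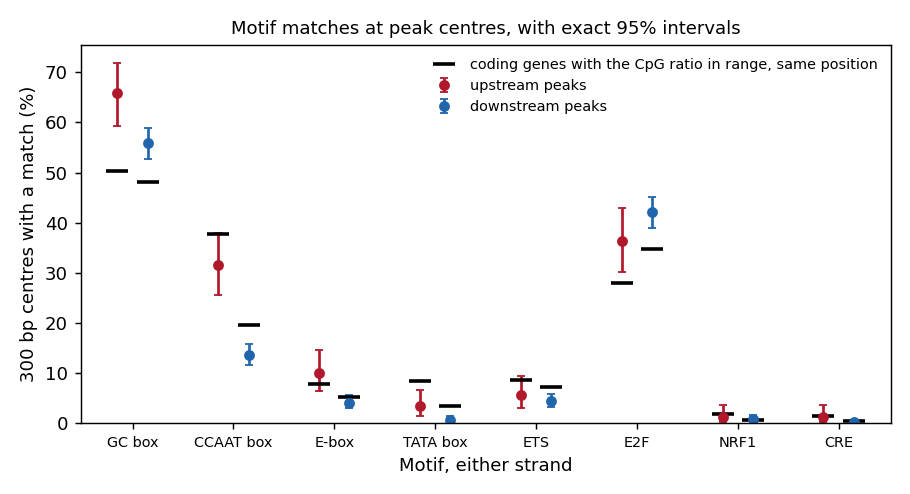
Percentage of peak centres (300 bp) with a match to each of 8 motifs (y axis) for upstream (red) and downstream (blue) peaks with exact 95% intervals; black dashes give the share of coding genes with a CpG ratio in range in windows 202 bp upstream or 274 bp downstream of the TSS. The CCAAT box is in 31.6% and 13.6% of centres, with dashes at 37.7% and 19.7%. The GC box intervals of both sets lie above their dashes of 50.2% and 48.2%. Both E2F intervals likewise lie above their dashes of 28.0% and 34.8%. Both TATA box intervals lie below their dashes of 8.41% and 3.46%. The downstream intervals of the CCAAT box and ETS lie below theirs, 19.7% and 7.20%. The windows were not matched on GC content.

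GC content over 1000 bp had a median of 64.5% at the upstream peaks, 64.8% at the downstream peaks and 65.6% at the central peaks. The shift was -0.3 points against the downstream peaks (-1.1 to 0.6) and -0.9 points against the central peaks (-1.9 to 0). Genes with a single TSS position were less frequent among the upstream peaks, 65 of 231 (28.1%) against 464 of 1012 (45.8%). The rule takes the nearest of all TSSs of a gene, so this share is tied to the rule and was not read further.

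Upstream peaks were spread over the genome, with 20 on chromosome 8 (8.66%), 19 each on chromosomes 4 and 7, and 2 on the X chromosome. Chromosome 19 held 13 (5.63%, 3.03 to 9.43) and 25 of the downstream peaks (2.47%), a difference of 3.16 points (0.577 to 7.00). It was the only one of 21 chromosomes whose interval did not include 0, and no adjustment for 21 comparisons was made. The chromosome 19 genes included Cnih2, an auxiliary protein of AMPA receptors (score 406), Tmem151a (307), Klc2, a kinesin light chain (282), and Cpeb3, an RNA-binding translational regulator (259.8).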

How the data were processed

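ChIP-seq libraries of V5-Dppa2 and control ESCs were processed by the authors: reads of low complexity were removed, the rest were aligned to mm9 with Bowtie 0.12.7, the best alignment of a read was kept, duplicates were removed and peaks were found with MACS 1.4.2 against the control (versions per the submitters' processing notes, which also name Picard 1.81). The deposited peak list gives a score per peak, made by the authors from the peak caller's p-value on a negative log10 scale, multiplied by 10, and its rows are named after TSSs. It holds 1 library, gives no read counts and no summits, so the depth is unknown and midpoints were used. The paper also states that Dppa2 peaks were kept only when they held 100 or more aligned reads. As the lowest score was 100 and this read limit applied, weaker enrichment cannot be seen.

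Peaks were set against all TSSs of GENCODE M1 on mm9. Score, width and GC content were compared by the Hodges-Lehmann shift, which is not the difference of the medians. Its intervals came from the tie-corrected Mann-Whitney test. Shares were compared by Clopper-Pearson and Newcombe intervals, and all intervals were at 95%. No p-value was computed, since the peaks of 1 library are not replicates. The steps were checked on simulated data. Motif shares were set beside those of 22367 protein-coding genes. The share of repeated 36-base words was counted over mm9 on both strands.

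The members, comparisons and gene families were chosen with earlier results of these data known. The genes named are those at the 12 highest scores, the 5 farthest midpoints, the 3 nearest the distance limit on each side, the peaks that miss the TSS and the leading member of each family, and other genes named as examples were chosen after their values were seen. The sequences shown are of the 3 highest scores outside repeats, the 2 farthest peaks and the highest and lowest CpG ratio, and of 3 monoamine transporter genes chosen after their values were seen. For the highest ratio a peak with its centre outside exons was taken in place of Sipa1l1. The pattern of the mitochondrial and ribosomal family was corrected after a kinase had matched it. Families were matched by symbol only. The leading member of 1 family is not reported here. Alternatives were a stricter score, other distances, other windows and other TSS sets, and distances limited to 100 to 300 bp, which was added after the data had been seen. Python 3.11.15, numpy 2.4.6, scipy 1.17.1, numba 0.67.0 and matplotlib 3.10.9 were used.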

Additional observations from a re-analysis of the deposited data

How the results depend on the processing

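The 17 results were recomputed under 118 alternatives, 106 of them planned. In 97 the result counted as kept. For a difference, the direction was kept and the interval still included or still excluded 0. A value with no test moved by less than its spread, or by less than 1.5 times for the count. The median score from 500 bp on is among the 97. It fell from 272 to 181 without peaks in repeated sequence, a change below the standard deviation of those scores. The greater width of upstream peaks, the CCAAT box and the E-box differences were among those that held under every alternative tried. The alternatives did not involve the windows of coding genes in the CpG range. Those windows had the CCAAT box in 37.7% upstream and 19.7% downstream, and the E-box in 7.91% and 5.26%. The number of upstream peaks was 115 at a score of at least 200 and 117 at a distance of at least 200 bp. With a score of at least 200 the score shift was -2.32, the GC content shift 0.4 points and the CRE difference 0.706 points. Each had an interval that included 0. This limit was set on the score itself, so its score shift cannot be compared with the main one. At this limit the difference for a non-coding TSS was 5.76 points with an interval above 0. With a distance of at least 200 bp the differences were 3.64 points for the GC box, 0.874 for the TATA box, 0.715 for CRE, -0.899 for ETS, -0.221 for a non-coding TSS and 0.545 for repeated words, all with intervals that included 0. With a distance of at least 50 bp the GC content shift was 0.1 points and the NRF1 difference 2.52 points, the latter with an interval above 0. With peaks beyond every TSS of the gene the GC content shift was 0.2 points, the TATA box difference 1.35 points and the CRE difference 1.01 points, and with the TSSs of coding transcripts the CRE difference was 0.598 points, with intervals that included 0. With distances of 100 to 300 bp in both sets, added after the data had been seen, the score shift was -14.47, the GC box difference 8.02 points, both with intervals that included 0, and the E2F difference -9.46 points with an interval below 0. The sets differed in size, from 115 upstream peaks at a score of at least 200 to 309 at a distance of at least 50 bp. The cause of these changes was not tested.

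No paired analysis was possible because each condition has 1 library, and for the same reason there was no replicate to leave out. Intervals cover the spread among peaks of 1 library. The library's depth is unknown, positions rest on midpoints and not on summits, and intensity of binding cannot be read from the score.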
